A study of Mus musculus with 24 samples.

Results

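Myotubes treated with 100 µM dexamethasone for 24 h were compared with myotubes kept for the same 24 h in vehicle medium. Both groups had 4 libraries, so 8 of the 24 libraries of the series enter this comparison, and they were chosen by their labels. The cells were C2C12, a wild-type mouse myoblast line whose cells fuse into multinucleated myotubes in low serum. All cells were differentiated for 7 days in high-glucose medium with 2% fetal bovine serum before the switch, and were collected on day 8. The vehicle medium held 1% ethanol and the same 2% serum, while the labels give no ethanol for the dexamethasone medium. They do not state whether replicates were separate cultures, so p-values measure the spread between libraries within groups, which may be technical. That spread was taken over all 24 libraries of the series. Myotube cultures of this line keep unfused cells, and in such bulk RNA fewer cells of a type and less RNA per cell cannot be told apart.

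Dexamethasone is a synthetic glucocorticoid. It binds the glucocorticoid receptor in the cytoplasm, and the receptor then enters the nucleus, where it switches on genes near its DNA elements and represses inflammatory genes. In skeletal muscle, glucocorticoids are known for raising ubiquitin ligases that mark muscle proteins for breakdown, for braking insulin and mTOR signalling, and for shifting fuel use from glucose to fat.

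The labelled cell type was checked first. All 10 muscle identity genes, among them Myog, Ckm, Acta1, Ttn and Casq2, were above 1 TPM in all 8 libraries. TPM is a transcript abundance, a level corrected for transcript length that sums to 1000000 in each library. The summed level of the list was 19476 to 21791 TPM with dexamethasone and 18438 to 24622 TPM with vehicle, and none of the 10 passed limma in either direction. At an unadjusted p below 0.05 0 was higher and 0 lower, on log2(TPM + 0.1) none passed, and with a replicate block 1 passed as higher. Myog, the transcription factor of terminal differentiation, was at 1140.3, 1520.3, 1573 and 1376 TPM in dexamethasone replicates 1 to 4 and at 1236, 1507, 1236 and 1339 TPM in vehicle replicates 1 to 4. Acta1, skeletal muscle actin, was at 5454 ± 757 against 4852 ± 849 TPM (mean ± SD, n = 4 here and below). Nr3c1, which encodes the glucocorticoid receptor, was at 24.6, 22.4, 28.3 and 27.2 TPM with dexamethasone and 21.4, 31.1, 17.99 and 27.4 TPM with vehicle (log2 difference −0.01 ± 0.09, adjusted p = 0.956). The groups overlapped for all of these genes.

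The test was limma on a log2 table of normalised values that the authors deposited, over 16257 genes. A gene is said to have risen or fallen when its adjusted p (Benjamini-Hochberg) was below 0.05. Log2 differences (dexamethasone minus vehicle, ± standard error) come from that table and are shrunken, so they understate the fold, which is the ratio of mean TPM, left out where the lower mean is under 0.5 TPM. In all, 4134 genes passed, 25.4% of those tested, with 2143 higher (13.2%) and 1991 lower (12.2%). The median log2 difference over all genes tested was −0.01. Of these, 570 genes (3.51%) had log2 differences of 1 or more, 345 higher (2.12%) and 225 lower (1.38%). The 4 libraries of each group did not overlap in TPM for 2305 higher genes (14.2% of those tested) and 1320 lower genes (8.12%). By log2(TPM + 0.1), 3292 of 15250 genes passed, 2132 higher (14%) and 1160 lower (7.61%). There 64.8% of calls were higher, against 51.8% in the log2 table, and the median difference was 0.08, against −0.01. Without dexamethasone replicate 4 the log2 table gave 2706 genes, and without vehicle replicate 3 it gave 2741. Fitted on the 8 libraries alone it gave 3233.

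**Figure D1:**
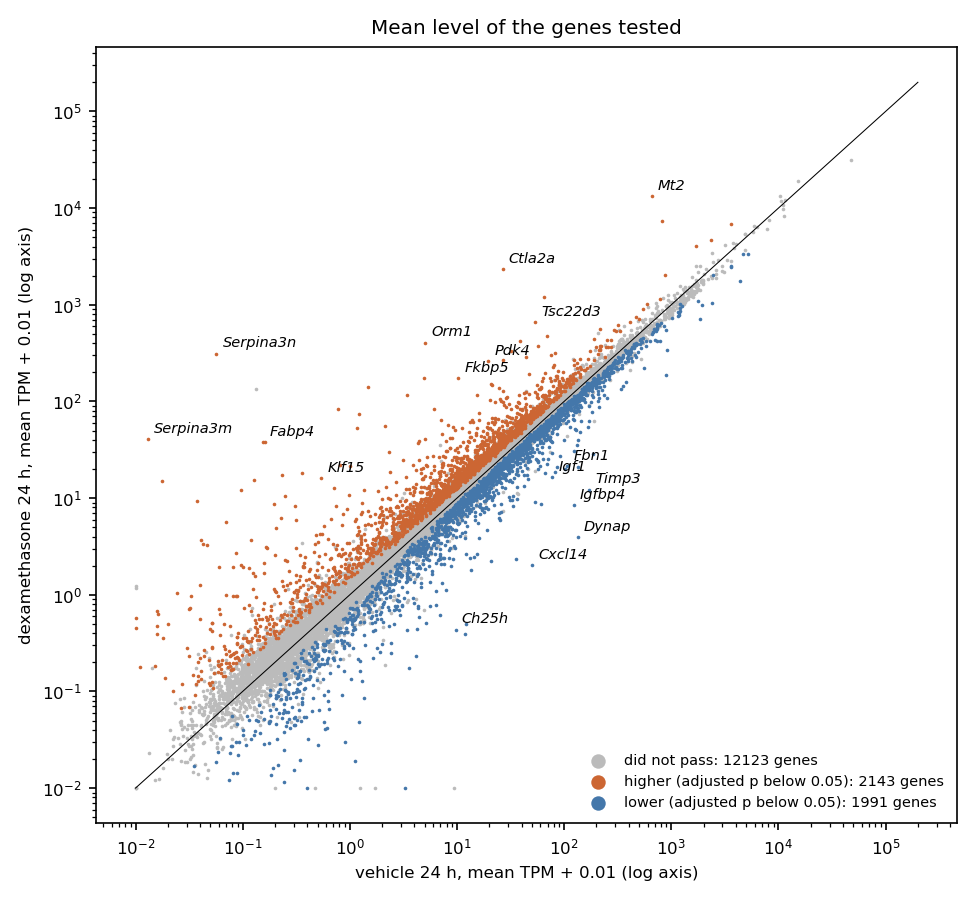
Mean level of each of the 16257 genes tested, with vehicle (x axis) and with dexamethasone (y axis), as TPM + 0.01 on log axes. The line marks equal levels, and the 2143 genes that rose reach much further from it than the 1991 that fell, with Serpina3n and Serpina3m close to 0 TPM with vehicle.

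The size of many small differences followed transcript length. When the tested genes were divided into 5 classes by the length of their transcripts, the median log2 difference was −0.10 in the shortest class (median 713.5 bases) and 0.12 in the longest (median 4749 bases). The shortest class had 232 genes higher and 547 lower, and the longest had 797 higher and 233 lower. Most of this lay in 2 vehicle libraries: the median deviation of the longest class minus that of the shortest was −0.27 in vehicle replicate 1 and −0.31 in vehicle replicate 3. It was −0.04 and −0.12 in the other 2 vehicle libraries and between −0.01 and 0.12 with dexamethasone. After each library was centred within 20 length classes, a step added after seeing the data, 3686 genes passed, 1894 higher (11.7%) and 1792 lower (11%), and 3170 of these were called in the same direction as before. Without vehicle replicates 1 and 3, which leaves 2 vehicle libraries, 1799 genes passed, 940 higher and 859 lower. In that fit 28 of 41 receptor target genes were higher, 10 of 19 acute phase genes, 6 of 37 atrophy genes and 10 of 16 adipocyte markers, while 15 of 43 inflammatory genes were lower. Over distinct members of all lists it called 178 higher and 138 lower, against 291 and 248. What sets this pattern was not tested. The length-centred counts are given below for some gene lists only, and those of other lists changed too. Insulin and mTOR genes, for example, had 14 higher and 5 lower in that fit, and Wnt pathway genes 6 and 12.

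**Figure D2:**
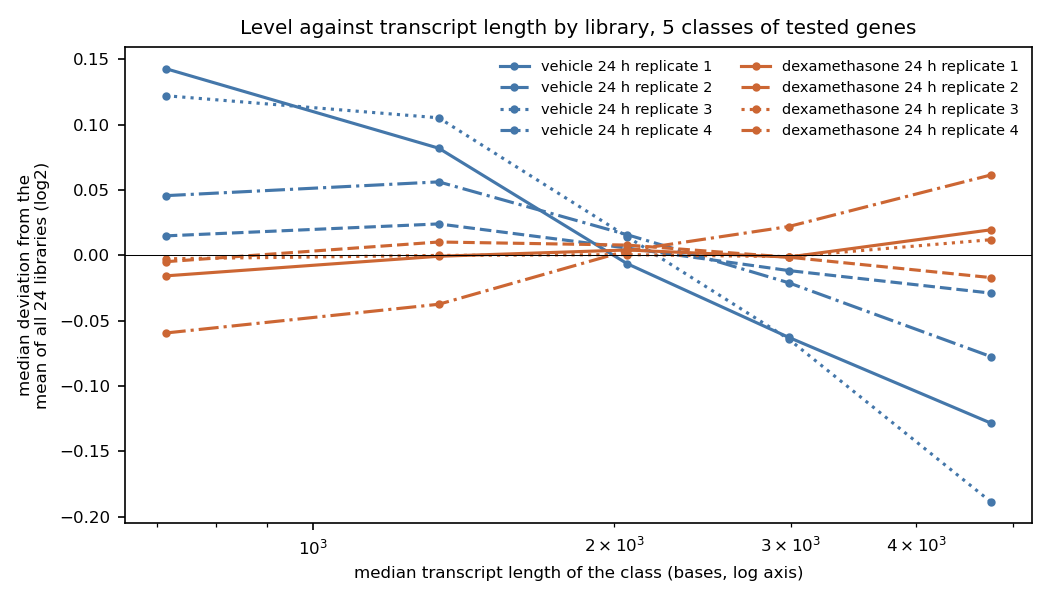
Median deviation of each library from the mean of all 24 libraries (y axis, log2) in 5 classes of transcript length (x axis, bases, log scale), 1 line per library. Vehicle replicates 1 and 3 slope down from 0.14 and 0.12 in the shortest class to −0.13 and −0.19 in the longest, while 3 of the 4 dexamethasone libraries stay near 0.

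The genes known as direct targets of the glucocorticoid receptor mostly rose. This list and those below were chosen with earlier results of these data known, so their counts describe and do not test. Of 41 receptor targets tested, 32 rose by limma (78%, against 13.2% over all genes) and none fell. At an unadjusted p below 0.05 1 was lower, and on log2(TPM + 0.1) 0 were. The median log2 difference of the list was 1.04. Fkbp5, a co-chaperone that lowers the receptor's affinity for hormone, was at 193, 176, 126 and 204 TPM with dexamethasone and 7.49, 11.7, 11.6 and 10.04 TPM with vehicle. Every dexamethasone library was above every vehicle library, a 17.1-fold difference (log2 difference 2.79 ± 0.18, adjusted p = 4.97e-10). Tsc22d3, which encodes the anti-inflammatory protein GILZ, was at 670.0, 692, 503 and 768 against 67.9, 50.3, 40.1 and 57.01 TPM (12.2-fold, adjusted p = 2.14e-11). The clock gene Per1, which carries a receptor element, rose 3.92-fold, from 8.67, 8.78, 5.74 and 8.25 to 30.4, 31.3, 25.2 and 36.4 TPM (adjusted p = 1.09e-08). For these 3 genes the lowest treated library stood far above the highest vehicle library.

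Other members of this list are enzymes, kinases and signalling brakes. Sgk1, a kinase related to Akt, was at 236, 342, 216 and 354 against 31.8, 61.7, 35.9 and 48.1 TPM (6.47-fold, log2 difference 1.83 ± 0.13, adjusted p = 3.24e-09). Zbtb16, a zinc finger transcription factor, was at 0 TPM in all 4 vehicle libraries. With dexamethasone it was at 0.596, 0.417, 0.408 and 0.834 TPM (adjusted p = 5.11e-06), so it rose but stayed below 1 TPM. Cebpd, a transcription factor of the acute phase and of fat cells, rose 4.56-fold to 27.1 ± 5.02 TPM, and its relative Cebpb rose 2.06-fold to 168 ± 35.8 TPM. Errfi1, which inhibits the EGF receptor, rose 4.23-fold, the cytokine receptor chain Il6ra 4.92-fold and the AMP deaminase Ampd3 4.31-fold. The smallest rise among the 32 in the log2 table was that of Tiparp, 1.36-fold (adjusted p = 0.00182).

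Upstream sequence is shown for 5 of the strongly raised genes whose promoter window holds the letters of the receptor's element, to let the element be seen beside their values. The letters searched were GNACANNNTGTNC, a palindrome, so both strands give the same matches. The windows are RefSeq promoters of build GRCm38.p6, 300 bases from 250 before the start site, and the stretches below stop at or before it. Each reads 5′ to 3′ on the gene's strand, with the matching 13 letters in capitals.
Slc10a6 (chr5:103629504-103629616, minus strand, match at −163 to −151 from the start): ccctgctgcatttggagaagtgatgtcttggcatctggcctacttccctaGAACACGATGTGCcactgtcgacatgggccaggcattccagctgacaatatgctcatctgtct
Sgk1 (chr10:21993652-21993764, plus strand, match at −188 to −176): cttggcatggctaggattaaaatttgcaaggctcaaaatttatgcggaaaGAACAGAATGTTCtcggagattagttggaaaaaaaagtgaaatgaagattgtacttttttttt
Mt1 (chr8:94178945-94179057, plus strand, match at −94 to −82): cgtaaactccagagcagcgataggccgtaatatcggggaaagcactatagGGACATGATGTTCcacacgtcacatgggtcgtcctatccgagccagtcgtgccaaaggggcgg
Serpina3n (chr12:104406580-104406692, plus strand, match at −78 to −66): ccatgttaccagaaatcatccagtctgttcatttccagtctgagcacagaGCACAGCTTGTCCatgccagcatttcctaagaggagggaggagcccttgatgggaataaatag
Serpina3c (chr12:104153885-104153997, minus strand, match at −75 to −63): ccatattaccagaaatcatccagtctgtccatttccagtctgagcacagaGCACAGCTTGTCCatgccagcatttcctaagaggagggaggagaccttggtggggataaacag
The Serpina3n and Serpina3c stretches share 107 of 113 bases, match included, yet Serpina3c reached only 1.23 ± 0.609 TPM. The letters were in 0.537% of all 27025 gene windows and in 0.41% of the 11454 windows of tested genes. They were in 14 of 1553 windows of genes that rose (0.901%), in 7 of 235 windows of genes that rose by at least 1 on the log2 scale (2.98%), in 5 of 1484 windows of genes that fell (0.337%) and in 1 of 145 windows of genes that fell by at least 1 (0.69%). A match describes the letters only, and a window without them shows nothing about the receptor.

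Krüppel-like factors include well-known mediators of glucocorticoid action in muscle. Of 15 tested, 7 rose and 1 fell. Klf15, which drives branched-chain amino acid breakdown and atrophy genes, was at 11.02, 18.7, 10.7 and 23.9 TPM with dexamethasone and 0.192, 0.472, 0.449 and 1.0 TPM with vehicle (30.5-fold, log2 difference 3.52 ± 0.30, adjusted p = 2.40e-08). Klf9 rose 2.9-fold, from 17.4, 30.2, 15.2 and 28.2 to 65.4, 60.6, 50.6 and 87.2 TPM, and Klf13 rose 3.11-fold to 47.2 ± 5.55 TPM. Klf10, a TGF-beta early gene, was the member that fell, 1.4-fold (adjusted p = 0.00594). Among steroid handling genes, 8 of 24 rose and 3 fell, but none fell without dexamethasone replicate 4 and 1 without dexamethasone replicate 1 or 3, without vehicle replicate 2 or on log2(TPM + 0.1). H6pd, which supplies cofactor to the glucocorticoid-reactivating enzyme, rose 2.95-fold, while that enzyme itself, Hsd11b1, was at 55.9, 70.9, 59.9 and 75.9 against 76.8, 142, 93.5 and 168 TPM (adjusted p = 0.0343). Hsd11b1 did not pass without any 1 of the 4 dexamethasone replicates, without vehicle replicate 2 or 4, in the length-centred fit (adjusted p = 0.0706) or on log2(TPM + 0.1) (adjusted p = 0.124). The coactivators Ncoa1, Ncoa2 and Ncoa3 rose 1.54-fold, 1.57-fold and 1.56-fold, and the corepressor adaptor Nrip1 2.58-fold.

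**Figure D3:**
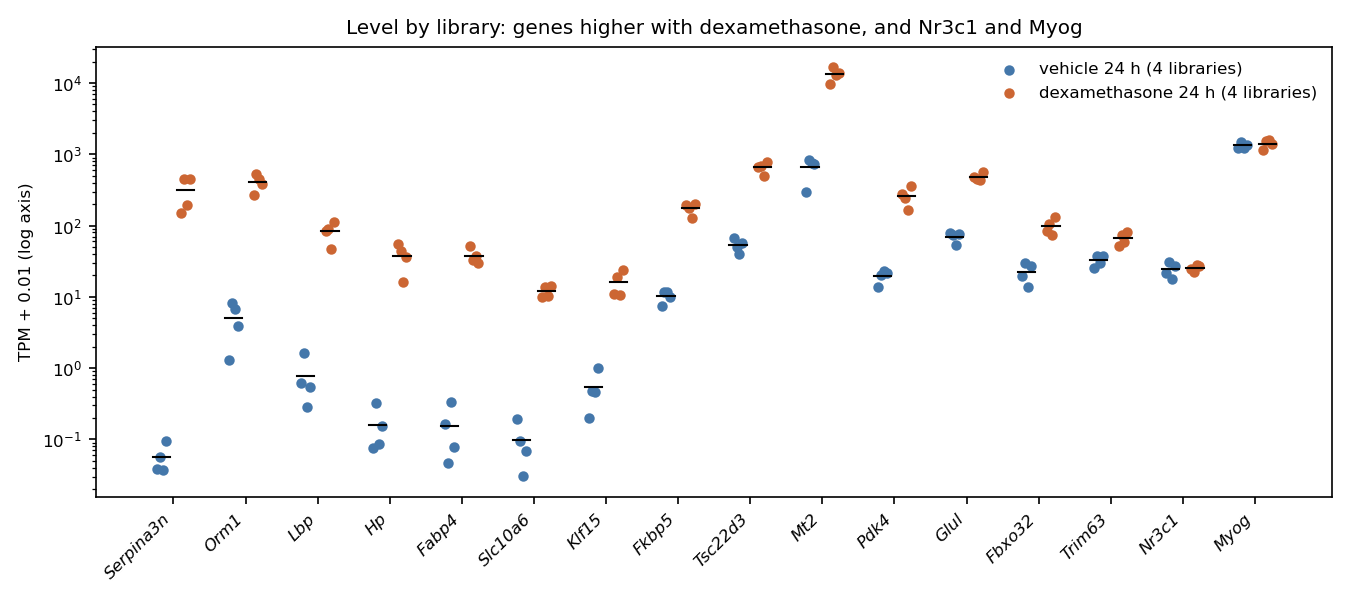
TPM + 0.01 (y axis, log scale) of 16 genes in each of the 4 vehicle and 4 dexamethasone libraries, with a bar at the group mean. From Serpina3n to Trim63 every dexamethasone point lies above every vehicle point, while Nr3c1 and Myog overlap.

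The largest rises included secreted proteins of the acute phase, the set that liver releases in inflammation. Of 36 genes on that list 19 passed the filter on low values. Of those, 11 rose and none fell, with 0 lower at an unadjusted p below 0.05 and 0 on log2(TPM + 0.1). A member near 0 without dexamethasone passes that filter only through treated libraries, and without the filter 13 of 32 rose and none fell (median log2 difference 0.39). Serpina3n, a serine protease inhibitor, was at 152, 452, 194 and 451 TPM with dexamethasone and 0.0285, 0.0467, 0.0267 and 0.0853 TPM with vehicle (log2 difference 9.00 ± 0.84, adjusted p = 8.52e-08). It went from below 0.1 TPM to above 100 TPM, with treated replicates 2 and 4 more than 2 times above 1 and 3. Serpina3m, its near copy, was at 35.9, 37.8, 45.1 and 42.8 TPM, and at 0 in 3 of 4 vehicle libraries. Hp, haptoglobin, which binds free haemoglobin, was at 55.1, 43.5, 16.2 and 36.2 against 0.067, 0.31, 0.0768 and 0.146 TPM. Lbp, which binds bacterial lipopolysaccharide, was at 84.5, 89.5, 47.4 and 111 against 0.618, 1.6, 0.272 and 0.542 TPM (109.7-fold, adjusted p = 4.07e-06).

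The orosomucoids Orm1, Orm2 and Orm3 are near-identical carrier proteins, so the split of reads between them is uncertain. Their sum was 448 to 1027 TPM with dexamethasone and 3.05 to 18.6 TPM with vehicle. Orm1 itself was at 266, 528, 448 and 381 against 1.3, 8.28, 6.64 and 3.88 TPM (80.7-fold, adjusted p = 1.79e-07). Vehicle replicate 1 was the lowest of its group. Saa3, a serum amyloid, rose to 10.6 ± 2.85 from 0.238 ± 0.164 TPM, and Lcn2, which binds bacterial siderophores, to 3.24 ± 1.2 from 0.0362 ± 0.03 TPM. Of the complement list, 5 of 19 members tested rose and 1 fell, or 2 lower with a replicate block and without dexamethasone replicate 1 or vehicle replicate 2. C3, the central component, reached 1.26 ± 0.745 TPM from 0.0299 ± 0.0177.

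Metallothioneins, which bind zinc and copper, made the largest rise in TPM, with Mt2 first and Mt1 next among all genes. Mt1 and Mt2 together held 15140.3 to 25766 TPM with dexamethasone and 739 to 1788 TPM with vehicle. Mt2 was at 9613, 16516, 12848 and 13843 against 294, 839, 747 and 736 TPM (20.2-fold, log2 difference 3.08 ± 0.23, adjusted p = 4.17e-09), and Mt1 rose 8.89-fold (adjusted p = 4.00e-08). These short paralogs may share reads, but both were higher in every treated library. The zinc importer Slc39a14 rose 3.87-fold to 100.2 ± 29.1 TPM. In the antioxidant list 7 of 36 rose and 7 fell, near the background on both sides. The risers were 4 without dexamethasone replicate 4 or without vehicle replicate 1. Gpx3, the secreted glutathione peroxidase, was at 315, 529, 399 and 460.3 against 35.9, 41.03, 36.8 and 42.4 TPM (10.9-fold, adjusted p = 3.54e-08), whereas Sod3, the secreted superoxide dismutase, fell 2.57-fold (adjusted p = 1.77e-05).

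Transport and conjugation genes also appeared from near 0. Slc10a6, a carrier of sulphated steroids, was at 10.1, 13.6, 10.2 and 14.3 against 0.183, 0.0849, 0.0203 and 0.0582 TPM (log2 difference 4.70 ± 0.32, adjusted p = 1.04e-09). Sult1a1, a sulphotransferase, was at 10.1, 8.41, 8.98 and 9.88 against 0.0494, 0.0315, 0.0146 and 0.0145 TPM, with little spread among the treated libraries. Mettl21e, a methyltransferase found in muscle, was at 15.9, 14.3, 16.02 and 13.8 TPM and at or below 0.1 TPM in every vehicle library. By a rule of at least 1 TPM in all libraries of one group and at most 0.1 TPM in all of the other, 10 genes were on with dexamethasone: Serpina3n, Serpina3m, Lcn2, Sult1a1, Mettl21e, Aldh1a1, Crispld2, Cnga2, Mir703 and Mir7027. Aldh1a1, a retinaldehyde dehydrogenase, reached 3.7 ± 0.679 TPM. The 2 microRNA genes are 109 and 72 bases long, were at 0 in all 4 vehicle libraries and at 4.42 ± 8.84 and 4.14 ± 5.06 TPM on day 7, and poly(A)-selected RNA does not measure mature microRNAs. The 1 gene off with dexamethasone was Gm10297, a predicted gene, at 4.45, 3.8, 3.02 and 1.83 TPM with vehicle (adjusted p = 0.00694). With at least 5 TPM against at most 0.5 TPM, 12 genes were on and none off.

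Further genes among the 15 largest rises were Ctla2a, Ifi207, Rgs2 and Gm5300, a predicted gene. Ctla2a, an inhibitor of cathepsin-like proteases, was at 1491, 2829, 2495 and 2555 against 30.97, 23.4, 20.1 and 32.1 TPM (87.9-fold, adjusted p = 7.46e-09). It has close paralogs, so this value may hold reads of more than 1 gene. Rgs2, which switches off Gq-coupled receptor signals, was at 82.2, 42.1, 39.9 and 47.4 against 2.55, 0.876, 0.466 and 0.713 TPM (45.99-fold, adjusted p = 1.74e-06). Ifi207, an interferon-inducible DNA sensor family member, rose to 17.5 ± 4.72 from 0.225 ± 0.0259 TPM and Gm5300 to 5.61 ± 2.32 from 0.0592 ± 0.0435 TPM.

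The ubiquitin ligases of muscle atrophy and their FoxO regulators moved up in part. Of 37 tested, 14 rose (37.8%) and 1 fell, with a median log2 difference of 0.18. In the length-centred fit 9 rose, because long genes such as Huwe1 and Ubr2 no longer passed, and 6 rose without vehicle replicates 1 and 3. The single fall was lost when any 1 of the 8 libraries was left out and on log2(TPM + 0.1). Fbxo32, which encodes atrogin-1, was at 84.99, 105, 73.2 and 132 against 19.7, 29.8, 13.8 and 26.9 TPM (4.38-fold, log2 difference 1.46 ± 0.14, adjusted p = 1.62e-07). Trim63, which encodes MuRF1 and targets myosin, was at 51.9, 73.1, 59.4 and 81.9 against 25.2, 37.8, 29.7 and 36.8 TPM (2.06-fold, adjusted p = 2.05e-04). The 2 classic ligases therefore differed in size of response, and neither had overlapping groups. Cblb, which marks the insulin receptor substrate for degradation, rose 3.1-fold, from 7.46, 9.23, 5.82 and 7.31 to 24.98, 22.02, 19.9 and 25.6 TPM (adjusted p = 1.48e-09). Asb2, a muscle cullin adaptor, was at 31.6 ± 9.89 against 15.02 ± 4.96 TPM and Fbxo31 at 20.3 ± 3.26 against 12.5 ± 1.11 TPM, both higher. Foxo3 rose 1.87-fold (adjusted p = 6.31e-05), while Foxo1 was at 8.34 ± 0.79 against 7.48 ± 1.7 TPM (adjusted p = 0.684). Fbxo40, another muscle ligase, was at 4.46, 21.4, 28.96 and 24.4 against 2.62, 14.4, 11.96 and 14.2 TPM, low in replicate 1 of both groups (adjusted p = 0.482).

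Insulin and mTOR signalling genes rose more often than they fell. Of 35 tested, 16 rose (45.7%) and 4 fell, or 9 and 2 without vehicle replicates 1 and 3. Ddit4, which encodes REDD1, an inhibitor of mTORC1, was at 108, 155, 88.8 and 160.0 against 24.1, 31.8, 25.5 and 25.7 TPM (4.78-fold, log2 difference 1.50 ± 0.15, adjusted p = 2.67e-07). Deptor, an inhibitor bound to mTOR itself, was at 106, 106, 135 and 144 against 35.2, 55.6, 30.5 and 47.03 TPM (2.91-fold, adjusted p = 4.15e-07). Sesn1, a leucine sensor that also restrains mTORC1, rose 3.04-fold to 93.8 ± 21.96 TPM. All 3 of these brakes were higher in every treated library. Pik3r1, the regulatory subunit of PI3-kinase, was at 43.1, 34.00, 35.8 and 35.4 against 14.2, 22.7, 12.9 and 20.7 TPM (2.11-fold, adjusted p = 0.00482), and Pik3ip1, a PI3-kinase inhibitor, rose 2.03-fold. The translation repressor Eif4ebp2 rose 1.87-fold. Of the receptor and its substrates, Insr rose 1.85-fold and Irs2 2.07-fold, while Irs1 fell 1.28-fold (adjusted p = 0.0391). Irs1 did not pass without dexamethasone replicate 2, 3 or 4, without vehicle replicate 1, 2 or 4, or on log2(TPM + 0.1) (adjusted p = 0.187).

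Insulin-like growth factor 1 and 1 of its binding proteins were lower. Igf1, the main local growth factor of muscle, was at 12.9, 14.8, 24.2 and 13.3 TPM with dexamethasone and 45.9, 88.6, 60.5 and 114 TPM with vehicle (4.73-fold, log2 difference −1.61 ± 0.38, adjusted p = 0.0037). Igfbp4, which sequesters IGFs, was at 5.94, 9.93, 11.6 and 6.27 against 33.97, 198, 102 and 158 TPM (14.6-fold, log2 difference −2.66 ± 0.43, adjusted p = 1.19e-04). In both genes all treated libraries were below all vehicle libraries, and vehicle replicate 1 was the lowest of its group. Pappa2, a protease that frees IGFs from binding proteins, rose 3.56-fold to 6.85 ± 4.92 TPM (adjusted p = 0.0219), with overlapping groups and no call without dexamethasone replicate 3 or vehicle replicate 1. Igfbp5, the most abundant binding protein of the list after Igfbp7, was at 252 ± 101 against 376 ± 98.5 TPM (adjusted p = 0.0564), which passed in the length-centred fit (adjusted p = 0.00736) and without dexamethasone replicate 4 or vehicle replicate 1. In all, 2 of 14 rose and 5 fell, with 4 higher in the fit with a replicate block and 1 without dexamethasone replicate 3 or vehicle replicate 1. Mstn, myostatin, was at 0.212 ± 0.208 against 0.0898 ± 0.0882 TPM (adjusted p = 0.4). Fst, the inhibitor of myostatin and activin, rose 1.96-fold, from 109, 168, 152 and 135 to 234, 272, 401 and 199.6 TPM (adjusted p = 0.0135), a call lost without dexamethasone replicate 3.

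Genes on both sides of pyruvate oxidation rose. Pdk4, the kinase that shuts pyruvate dehydrogenase, was at 280.2, 240.0, 166 and 362 against 13.8, 19.9, 22.7 and 21.8 TPM (13.4-fold, log2 difference 2.54 ± 0.16, adjusted p = 5.53e-10). Pdp1, the phosphatase that opens it again, rose as well, 3.8-fold, from 29.5, 28.3, 26.8 and 30.7 to 103, 102, 128 and 105 TPM (adjusted p = 1.17e-09). Both opposing enzymes were thus higher in every treated library. Of 49 genes of glucose use and glycogen, 11 rose and 3 fell, or 7 higher without dexamethasone replicate 4, and 1 lower without dexamethasone replicate 3 or 4, without vehicle replicate 3 or on log2(TPM + 0.1). The glycogen branching enzyme Gbe1 rose 1.86-fold (adjusted p = 0.00694). Among amino acid genes, 10 of 41 rose and 4 fell, or 2 lower without dexamethasone replicate 2 or 4, without vehicle replicate 3 or in the length-centred fit. Glul, glutamine synthetase, was at 473, 444, 435 and 559 against 77.7, 72.7, 53.00 and 75.6 TPM (6.85-fold, adjusted p = 1.13e-09). Bcat2, the mitochondrial branched-chain aminotransferase, rose 1.93-fold, and Prodh, proline dehydrogenase, rose to 4.11 ± 0.947 from 0.474 ± 0.214 TPM. The glutamate transporter Slc1a3 fell 3.58-fold, from 31.5, 23.4, 13.98 and 30.8 to 12.3, 4.06, 8.17 and 3.32 TPM (adjusted p = 0.0103).

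Genes of lipid handling rose more often than they fell, 15 against 4 of 54. The falls numbered 1 without vehicle replicate 3 and 2 without dexamethasone replicate 4 or on log2(TPM + 0.1). Fabp4, a fatty acid carrier, was at 51.1, 32.7, 37.8 and 30.2 against 0.153, 0.0368, 0.321 and 0.068 TPM (log2 difference 4.74 ± 0.44, adjusted p = 8.06e-08), and Plin4, which coats lipid droplets, at 6.18 ± 1.49 against 0.215 ± 0.0429 TPM. The triglyceride lipase Pnpla2 rose 1.75-fold and the acyl-CoA synthetase Acsl4 2.11-fold. G0s2, which inhibits that lipase, was at 29.4, 17.4, 20.9 and 11.8 against 116, 104, 93.99 and 92.6 TPM and so fell 5.12-fold (adjusted p = 3.44e-05). Abca1, the cholesterol exporter, rose 6.87-fold to 8.94 ± 4.21 TPM. Ch25h, which makes 25-hydroxycholesterol, fell to 0.305, 0.382, 0.496 and 0.521 TPM from 9.99, 8.13, 10.2 and 10.5 TPM (adjusted p = 1.24e-08), with little spread in either group. In sterol and fatty acid synthesis 6 of 41 rose and 3 fell; 3 rose without dexamethasone replicate 4 or vehicle replicate 3, and 7 fell without dexamethasone replicate 1 or vehicle replicate 2. Angptl4, a lipase inhibitor and known receptor target, was at 44.6, 32.5, 3.06 and 32.02 against 35.4, 36.5, 26.2 and 31.3 TPM, with treated replicate 3 alone far below (adjusted p = 0.273).

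Several of these genes are also markers of fat cells. Of 24 adipocyte markers 16 passed the filter, 12 rose and none fell, with 0 lower at an unadjusted p below 0.05 and 0 on log2(TPM + 0.1). Without the filter 12 of 24 rose and none fell. The summed level of the list was 365 to 531 TPM with dexamethasone and 156 to 203 TPM with vehicle. Cebpa, a transcription factor of the mature fat cell, was at 101, 179, 97.9 and 167 against 16.5, 33.1, 22.03 and 27.4 TPM (5.5-fold, adjusted p = 1.26e-07). Pparg, the master regulator, rose only 1.64-fold, to 4.24 ± 0.308 TPM (adjusted p = 0.00347). Defining genes of mature fat stayed near 0: Lep, Plin1, Cidec and Cfd were each below 0.1 TPM in all 8 libraries, and Adipoq was at 0.0849 ± 0.0419 against 0.0372 ± 0.0223 TPM. The part of a change of cell fate in the lipid results was not tested.

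The share called differed between lists of differentiation genes. Myogenic regulators and fusion genes had 17.9% higher and 3.57% lower, and markers of satellite and reserve cells 23.5% and 29.4%. Over all genes the shares were 13.2% and 12.2%. Among myogenic regulators and fusion genes, 5 of 28 rose and 1 fell, or 4 lower with a replicate block, none without dexamethasone replicate 2 or 4 or vehicle replicate 4, and 2 without vehicle replicate 3. Myf5, a myoblast determination factor, was at 61.4, 50.3, 60.8 and 56.2 against 12.2, 6.03, 7.4 and 7.21 TPM (6.96-fold, adjusted p = 8.02e-07), and Myf6, a late factor of the same family, at 15.4, 2.92, 5.61 and 6.98 against 2.17, 0.331, 0.187 and 1.05 TPM (8.26-fold, adjusted p = 0.00189). The 2 genes lie side by side in the genome, and both were higher in every treated library. Myod1 was at 157 ± 12.5 against 137 ± 8.6 TPM (adjusted p = 0.574). The homeobox factor Six4 rose 2.32-fold. Of 17 markers of satellite and reserve cells, 4 rose and 5 fell, or 8 lower with a replicate block and 3 without dexamethasone replicate 4. Their summed level was 1674 to 2142 TPM with dexamethasone and 1508 to 2008 TPM with vehicle, so these ranges overlapped.

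Of 50 sarcomere genes tested, 8 rose (16.00%), near the 13.2% over all genes, and none fell, against 12.2% over all genes. The median log2 difference was 0.13, and in the length-centred fit 10 rose and none fell. At an unadjusted p below 0.05, 1 member was lower, on log2(TPM + 0.1) 0 passed as lower, and 1 did with a replicate block, without dexamethasone replicate 3 or without vehicle replicate 2. The risers dropped to 4 without dexamethasone replicate 4 or vehicle replicate 3 and to 5 without dexamethasone replicate 1 or vehicle replicate 2. Myh1, a fast adult myosin heavy chain, was at 586, 422, 516 and 627 against 376, 294, 223 and 324 TPM (1.77-fold, adjusted p = 0.00385), and Ldb3, a Z-disc protein, rose 1.69-fold (adjusted p = 0.00948). Of 26 excitation-contraction genes, 7 rose and 1 fell. Stim1, the sensor of calcium stores, rose 2.1-fold to 39.5 ± 7.49 TPM and the release channel Ryr3 2.49-fold, while Pvalb, a calcium buffer of fast fibres, fell 2.1-fold (adjusted p = 0.00802). At the neuromuscular junction 3 of 26 rose and 5 fell, or 2 and 8 in the length-centred fit, and 3 fell without dexamethasone replicate 1, without vehicle replicate 2 or on log2(TPM + 0.1). Musk, the receptor kinase of the synapse, rose 1.97-fold (adjusted p = 0.0035).

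Secreted and matrix proteins were among the genes that fell, while others of them rose. Of 31 collagen chains, 4 rose (12.9%) and 6 fell (19.4%), against 13.2% and 12.2% over all genes. Col1a1, the main chain of type I collagen, was at 169, 90.2, 112 and 62.8 against 281, 256, 294 and 182 TPM (2.33-fold, adjusted p = 0.0421). Its groups did not overlap, but the call was lost without dexamethasone replicate 2, 3 or 4, without vehicle replicate 1, 2 or 3, and on log2(TPM + 0.1) (adjusted p = 0.125). Col8a1, a short-chain collagen, fell 3.63-fold, from 60.5, 70.2, 70.6 and 64.9 to 28.4, 8.71, 30.97 and 5.18 TPM (adjusted p = 0.00242). The basement membrane chain Col4a1 went the other way, at 294, 199, 117 and 178 against 75.96, 86.7, 38.8 and 61.3 TPM (3.0-fold, adjusted p = 0.00915), as did its partner Col4a2 (2.58-fold). Collagens that fell numbered 3 without dexamethasone replicate 2, dexamethasone replicate 4 or vehicle replicate 2, and 3 on log2(TPM + 0.1). Col8a1 and the basement membrane chains thus moved in opposite directions.

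Of 55 other matrix and crosslinking genes, 9 rose (16.4%) and 14 fell (25.5%), against 13.2% and 12.2% over all genes. The falls numbered 8 without dexamethasone replicate 4, 9 without vehicle replicate 2 or 4, and 8 on log2(TPM + 0.1). Fbn1, fibrillin of elastic microfibrils, was at 25.05, 16.04, 26.2 and 18.1 against 93.7, 149, 82.7 and 98.4 TPM (4.97-fold, log2 difference −1.62 ± 0.19, adjusted p = 2.31e-06). Tnc, tenascin C, was at 12.9, 8.05, 11.02 and 4.04 against 60.3, 66.1, 55.04 and 34.4 TPM (5.99-fold, adjusted p = 5.66e-05). Fn1, fibronectin, was at 555, 726, 934 and 626 against 1461, 2476, 1689 and 1835 TPM (2.63-fold, adjusted p = 5.24e-05). These 3 matrix glycoproteins had no overlap between groups. Thbs1, a matricellular activator of TGF-beta, fell 2.64-fold to 342 ± 79.8 TPM, and Has2, which makes hyaluronan, 3.98-fold to 8.35 ± 4.93 TPM. Rises included Fbln1, a fibulin, 4.74-fold, the laminin chain Lama2 of muscle basement membrane, 3.17-fold, and the crosslinking enzyme Lox, 1.89-fold.

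Proteases and their inhibitors moved in both directions, 9 higher and 13 lower of 47. Timp3, a matrix-bound inhibitor of metalloproteinases, was at 15.3, 6.07, 20.1 and 7.36 against 90.6, 194, 207 and 189 TPM (13.9-fold, log2 difference −2.48 ± 0.29, adjusted p = 1.53e-06). Timp1, a soluble one, was at 188, 188, 238 and 139.8 against 691, 1012, 988 and 851 TPM (4.7-fold, adjusted p = 3.14e-09). Within the ADAMTS proteases members diverged. Adamts16 was at 0.65, 2.21, 4.77 and 1.64 against 17.7, 48.8, 37.2 and 38.1 TPM and the aggrecanase Adamts4 at 9.13, 7.48, 9.53 and 8.4 against 24.8, 83.9, 77.9 and 58.2 TPM, falls of 15.3-fold and 7.08-fold. Adamts1, another aggrecanase, was at 70.8, 45.9, 58.00 and 44.4 against 8.89, 11.3, 6.32 and 10.2 TPM, a rise of 5.98-fold (adjusted p = 2.24e-08), and Adamts15 rose to 3.05 ± 1.47 from 0.159 ± 0.0497 TPM. Vehicle replicate 1 was the lowest of its group for Adamts16 and Adamts4. The tissue plasminogen activator Plat fell 2.74-fold (adjusted p = 0.00209).

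**Figure D4:**
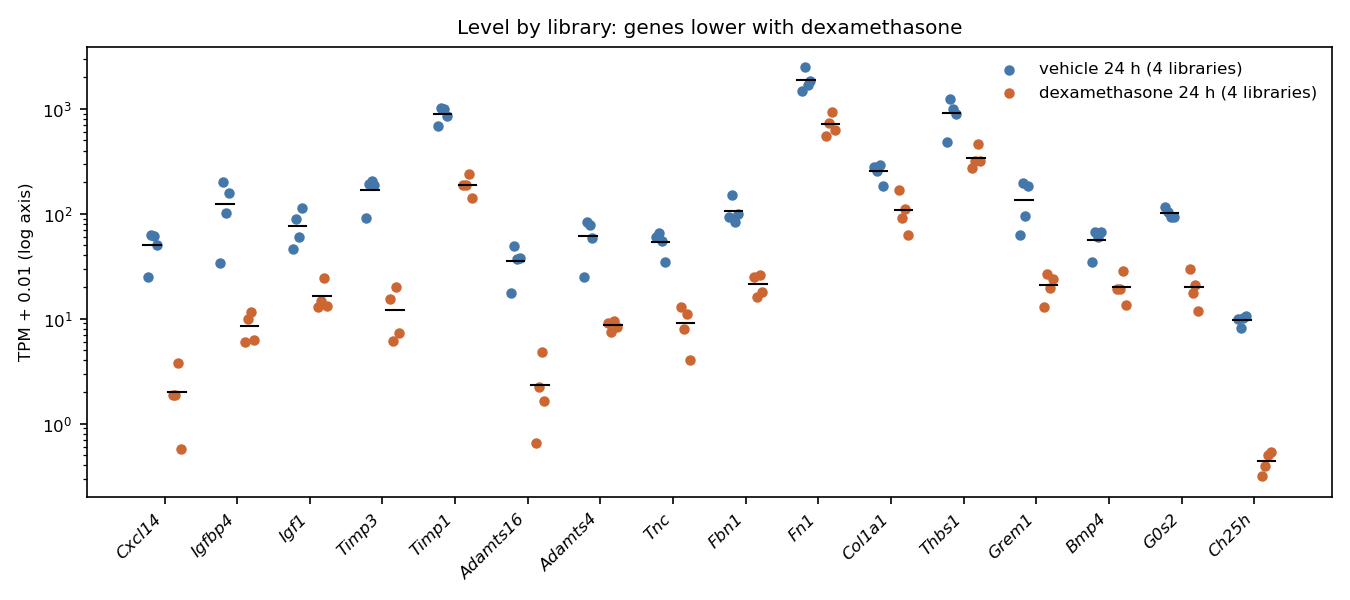
TPM + 0.01 (y axis, log scale) of 16 genes in each of the 4 vehicle and 4 dexamethasone libraries, with a bar at the group mean. Every dexamethasone point lies below every vehicle point, and for Cxcl14, Igfbp4 and Timp3 1 vehicle library stands below the other 3.

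In TGF-beta signalling 6 of 22 genes rose and 6 fell, or 5 and 9 in the length-centred fit, and 3 fell without dexamethasone replicate 4. Lrrc32, which anchors latent TGF-beta on the cell surface, fell to 0.431 ± 0.117 from 4.26 ± 1.51 TPM, and the ligand Tgfb1 fell 1.68-fold (adjusted p = 2.17e-05). The co-receptor Tgfbr3 was at 19.8, 19.7, 14.2 and 25.5 against 3.68, 6.03, 2.59 and 5.99 TPM (4.33-fold, adjusted p = 1.34e-05), and Ccn2, a connective tissue growth factor, rose 2.87-fold. Tgfb1 and Tgfbr3 thus moved in opposite directions. In BMP signalling 8 of 28 rose and 6 fell. The ligand Bmp4 was at 19.05, 19.2, 28.2 and 13.4 against 34.6, 66.4, 59.5 and 66.3 TPM (2.84-fold, adjusted p = 6.26e-04), and its antagonist Grem1 at 12.8, 26.8, 19.6 and 23.6 against 62.7, 195, 96.1 and 185 TPM (6.5-fold, adjusted p = 2.16e-05). Id3 and Id1, targets of BMP receptors, rose 3.93-fold and 2.01-fold, Id3 from 74.3, 64.3, 91.6 and 74.1 to 338, 298, 312 and 247 TPM.

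Of 37 Wnt pathway genes, 7 rose and 10 fell, with 6 lower without dexamethasone replicate 4 or vehicle replicate 3 and 4 lower on log2(TPM + 0.1). Secreted Wnt antagonists split: Sfrp4 fell to 0.594, 0.785, 0.62 and 0.43 TPM from 6.51, 7.15, 4.24 and 9.65 TPM (adjusted p = 2.18e-04), while Sfrp1 rose 2.86-fold (adjusted p = 0.0128), a call lost without vehicle replicate 1. Axin2, a common target of the pathway, rose 2.13-fold (adjusted p = 0.00852), and the Wnt deacylase Notum 9.22-fold. In the Notch pathway 5 of 17 rose and 4 fell. The Notch target Heyl fell 2.54-fold, from 13.6, 12.9, 6.72 and 11.3 to 5.97, 3.74, 4.02 and 3.81 TPM (adjusted p = 0.00343), and Hes1 1.72-fold (adjusted p = 1.36e-06). Notch genes that rose numbered 3 without dexamethasone replicate 1, vehicle replicate 1 or vehicle replicate 3.

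Chemokines and inflammatory genes fell more than they rose, 17 (39.5%) against 3 of 43, and the median log2 difference was −0.22. In the length-centred fit the counts were the same, and with a replicate block 5 rose and 18 fell. Only 1 rose without dexamethasone replicate 4 or vehicle replicate 3. Cxcl14 had the largest fall of all named genes in the log2 table, at 1.86, 1.87, 3.74 and 0.558 against 24.9, 62.01, 61.7 and 50.8 TPM (24.8-fold, log2 difference −3.22 ± 0.47, adjusted p = 3.04e-05). Cxcl12, the ligand of Cxcr4, was at 55.9, 72.9, 54.4 and 70.2 against 93.6, 147, 139 and 189 TPM (2.24-fold, adjusted p = 0.00447). Il18, an inflammasome cytokine, fell 1.91-fold (adjusted p = 4.74e-04) and Tnfrsf11b, the decoy receptor osteoprotegerin, 3.55-fold (adjusted p = 4.40e-04). Ccl2, a monocyte attractant, was at 1.62, 3.31, 2.93 and 2.01 against 3.03, 2.63, 2.57 and 2.95 TPM (adjusted p = 0.499). Cxcl1, which attracts neutrophils, rose 2.37-fold to 6.11 ± 1.86 TPM (adjusted p = 0.0281), and did not pass without dexamethasone replicate 2, dexamethasone replicate 4, vehicle replicate 1 or vehicle replicate 3.

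Of 40 interferon response and antigen presentation genes, 3 rose and 10 fell, or 3 and 8 in the length-centred fit. Irf1, a transcription factor of this response, fell 1.93-fold, from 15.9, 20.3, 18.6 and 19.4 to 10.7, 9.19, 8.92 and 9.61 TPM (adjusted p = 2.94e-06). Xaf1 fell 2.47-fold (adjusted p = 4.95e-06) and Isg15, a ubiquitin-like protein, 2.37-fold (adjusted p = 0.0138), the latter lost without dexamethasone replicate 4. Irf2, an antagonist of Irf1, rose 2.52-fold to 31.5 ± 3.16 TPM (adjusted p = 2.70e-07), so the pair went in opposite directions. Of 18 prostaglandin genes, 2 rose, 1 without dexamethasone replicate 3 or 4 or vehicle replicate 1 or 3, and 4 fell, 2 without dexamethasone replicate 1 or 2 or on log2(TPM + 0.1). Hpgd, the enzyme that inactivates prostaglandins, rose 5.65-fold to 21.9 ± 3.66 TPM (adjusted p = 2.68e-05), while Pla2g4a, which releases arachidonic acid, fell 2.25-fold (adjusted p = 0.00103).

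Growth factors and their receptor kinases had 10 higher and 15 lower of 59, and 9 lower without dexamethasone replicate 4 or on log2(TPM + 0.1). Gas6 and its receptor Mertk, which act in the clearing of dead cells, both rose. Gas6 was at 225, 489, 403 and 387 against 27.4, 71.8, 58.4 and 70.01 TPM (6.61-fold, adjusted p = 1.20e-04) and Mertk at 14.3, 10.4, 6.68 and 11.4 against 1.59, 1.01, 0.495 and 0.827 TPM (10.9-fold, adjusted p = 2.32e-07). A second receptor of Gas6, Tyro3, fell 1.6-fold (adjusted p = 3.17e-04), so the receptors of 1 ligand diverged. Vegfd, a lymphatic growth factor, was at 49.5, 65.8, 64.5 and 75.4 against 5.2, 7.41, 7.74 and 8.01 TPM (9.0-fold, adjusted p = 2.71e-08), and the mesenchymal receptor Pdgfra rose 4.25-fold. Some ligands that act on nerve cells were lower: Nrg1 fell 2.92-fold (adjusted p = 4.02e-06) and Artn 2.65-fold (adjusted p = 3.03e-04).

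Among ERK feedback and immediate early genes, 11 of 46 rose and 7 fell. With the replicate number as a block 12 fell, and in the length-centred fit 11. Dusp1, the phosphatase that silences MAP kinases, was at 87.7, 68.2, 66.8 and 67.3 against 38.7, 46.03, 33.1 and 40.96 TPM (1.83-fold, adjusted p = 0.00357). The ERK target Etv4 fell 2.34-fold (adjusted p = 4.03e-04) and Egr3 1.97-fold (adjusted p = 4.55e-04). In the adrenergic and cyclic AMP list, 11 of 52 rose, 7 without vehicle replicate 3, and 8 fell, 5 on log2(TPM + 0.1). Edn1, endothelin 1, was at 35.99, 53.4, 45.8 and 49.4 against 3.74, 6.95, 11.6 and 6.97 TPM (6.31-fold, adjusted p = 3.69e-05), while its receptor Ednra fell 3.89-fold (adjusted p = 1.97e-05).

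Clock genes had 5 higher and 6 lower of 23, with 3 lower on log2(TPM + 0.1). Outputs of the clock fell: Dbp was at 9.46, 6.4, 8.55 and 10.5 against 25.9, 27.9, 17.3 and 32.2 TPM (2.96-fold, adjusted p = 3.31e-06) and Per3 at 1.65, 1.16, 1.86 and 1.92 against 5.99, 6.61, 4.57 and 6.09 TPM (3.53-fold, adjusted p = 6.38e-08). Nfil3, a repressor at the same sites as Dbp, rose 2.4-fold (adjusted p = 1.85e-06), and Per1 is given above. Members of 1 Period family thus moved in opposite directions.

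Among stress and housekeeping lists the shares called lay on both sides of that over all genes. The integrated stress response had 2 higher and 1 lower of 27; 1 was higher without any single library other than dexamethasone replicate 3, and 0 or 2 were lower without dexamethasone replicate 1, 2 or 3 or vehicle replicate 2 or 4. Chaperones of the endoplasmic reticulum had 1 higher and 4 lower of 24, with 2 lower in the length-centred fit and 1 without dexamethasone replicate 4 or vehicle replicate 3 or on log2(TPM + 0.1). Serpinh1, the collagen chaperone, fell 1.88-fold (adjusted p = 0.00164). Of 23 heat shock genes 5 rose and 3 fell, but none fell without dexamethasone replicate 4 or vehicle replicate 3 and 1 without dexamethasone replicate 1 or 2 or on log2(TPM + 0.1). The small heat shock protein Hspb7 rose 2.51-fold (adjusted p = 0.00292). Autophagy and lysosome genes had 10 higher and 5 lower of 46. The higher ones numbered 6 without dexamethasone replicate 4, vehicle replicate 1 or vehicle replicate 3, and the lower ones 2 or 3 without dexamethasone replicate 2, 3 or 4, without vehicle replicate 3 or 4, with the replicate block, length-centred or on log2(TPM + 0.1). Bnip3, a mitophagy receptor, rose 1.91-fold (adjusted p = 0.00247). Cell cycle genes had 7 higher (14.6%) and 4 lower (8.33%) of 48, against 13.2% and 12.2% over all genes. Their median log2 difference was −0.23, but 0.17 without both vehicle replicates 1 and 3, where 2 rose and 2 fell. There were 3 or 4 higher without dexamethasone replicate 2 or 3 or without vehicle replicate 1, 3 or 4. There were 2 lower without dexamethasone replicate 4 or vehicle replicate 3. The CDK inhibitor Cdkn1b rose 1.54-fold (adjusted p = 0.00104).

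Lists of short mRNAs leaned lower, and their counts turned on length and on single libraries. Medians were also negative in some lists of longer mRNAs and positive in others. They were −0.23 for cell cycle genes (median transcript 2165 bases) and −0.14 for endoplasmic reticulum chaperones (2179.5 bases). The share lower was 2.35% for ribosomal proteins, 16.5% for the nuclear respiratory chain, 20.8% for mitochondrial ribosomal proteins and 22% for the proteasome, against 12.2% over all genes. Of 85 ribosomal protein genes (median transcript 712 bases) none rose and 2 fell, with a median log2 difference of −0.23; 5 fell with the replicate block, 17 without vehicle replicate 2, 6 after quantile normalization and none in the length-centred fit. Their summed level was 77066 to 100483 TPM with dexamethasone and 92493 to 128835 TPM with vehicle, highest in vehicle replicates 1 and 3. Of 79 nuclear respiratory chain genes 13 fell and none rose, but 4 fell in the length-centred fit, 1 without dexamethasone replicate 4 or vehicle replicate 3, 2 without vehicle replicate 1, 6 without dexamethasone replicate 2, 8 without dexamethasone replicate 1 and 31 without vehicle replicate 2. Mitochondrial ribosomal proteins had 16 of 77 lower, 10 length-centred, and from 5 without dexamethasone replicate 4, vehicle replicate 1 or vehicle replicate 3 to 34 without vehicle replicate 2. Proteasome subunits had 1 of 41 higher and 9 lower, 5 lower length-centred, and from 3 without dexamethasone replicate 4 or vehicle replicate 3 to 16 without vehicle replicate 2. Without both vehicle replicates 1 and 3, none of the ribosomal protein or nuclear respiratory chain genes fell. In that fit 1 mitochondrial ribosomal protein gene and 1 proteasome subunit fell, and the medians of these lists lay between −0.05 and −0.04. It called fewer genes in all, 1799. The part of transcript length in these falls was not tested beyond these fits. The 13 mitochondrially encoded mRNAs had none called, at an unadjusted p below 0.05 0 higher and 0 lower, and on log2(TPM + 0.1) none, and held 7.91 to 10.3% of TPM with dexamethasone and 6.35 to 9.81% with vehicle.

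**Figure D5:**
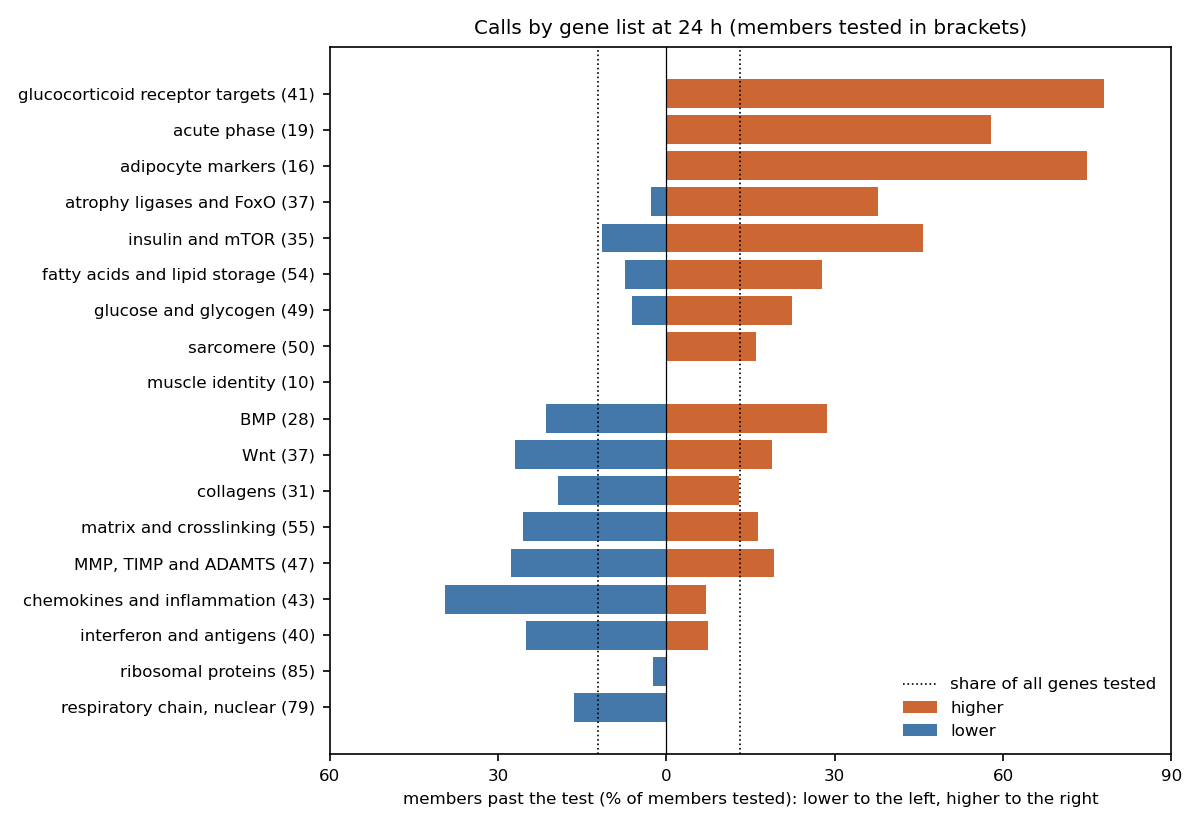
Share of tested members that rose (right) or fell (left) for 18 gene lists, in % of members tested, with the number tested in brackets. Dotted lines mark the shares over all genes tested, 13.2% higher and 12.2% lower. Among the 18 lists shown, receptor targets, adipocyte markers and acute phase genes lie furthest right and inflammatory genes furthest left. Fibroblast and tendon markers and macrophage markers, not shown, had 42.9% lower each.

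Among the remaining large falls, Dynap, a membrane protein, was at 3.31, 3.65, 6.42 and 2.46 against 46.9, 181, 144 and 164 TPM (33.8-fold, adjusted p = 1.48e-07). Cd7, known from T cells, was at 0.193, 0.468, 0.682 and 0.598 against 1.72, 16.95, 13.7 and 15.8 TPM (adjusted p = 8.14e-05), and vehicle replicate 1 was by far the lowest of its group in both. Cd53, a tetraspanin known from leukocytes, fell 8.07-fold (adjusted p = 8.08e-06). Other genes among the 15 largest falls were Insc, a spindle orientation adaptor, 9.29-fold lower, Gpr153, an orphan receptor, 7.55-fold lower, and Camk1g, a calcium-dependent kinase, 7.23-fold lower. Apol9a, an apolipoprotein L with a close paralog, was 7.39-fold lower, and Olfr810, an olfactory receptor gene, fell to 0.506 ± 0.306 from 5.16 ± 1.99 TPM.

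Markers of other cell types give the frame for these values. Of 14 fibroblast and tendon markers tested 2 rose and 6 fell, and the summed level of the list was 3631 to 5926 TPM with dexamethasone and 5316 to 6915 TPM with vehicle. Of 13 bone and cartilage markers none rose and 3 fell (607 to 1777 against 938 to 3873 TPM in sum), with Sp7, Ibsp, Dlx5, Acan and Col2a1 below 0.1 TPM in all 8 libraries. Of 11 smooth muscle markers 3 rose and 1 fell (3148 to 4975 against 2952 to 3297 TPM in sum), and Myh11 and Myocd were below 0.1 TPM throughout. Of 7 macrophage markers tested none rose and 3 fell, Cd74, Csf1r and Mrc1, each below 0.3 TPM in every library. Csf1r (adjusted p = 0.0497) did not pass with a replicate block (adjusted p = 0.0582). The falls numbered 1 in the length-centred fit, 1 without dexamethasone replicate 1, 3 or 4 or vehicle replicate 3 or 4, and none on log2(TPM + 0.1) or without both vehicle replicates 1 and 3. Macrophage markers summed to 8.82 to 12.6 against 8.68 to 11.4 TPM, with Ptprc, Adgre1, Fcgr1 and Tyrobp below 0.1 TPM in all 8 libraries. Of 3 endothelial markers tested 1, Flt1, rose, and these markers summed to 1.36 to 2.31 against 0.462 to 1.18 TPM. The part of these cell types in the falls of matrix and inflammatory genes was not tested.

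The 24 h response was set beside that at 72 h, which has its own vehicle group. The change of the difference from 24 h to 72 h passed for 1842 genes, 11.3% of those tested. Klf15 went from a log2 difference of 3.52 at 24 h to 1.29 at 72 h (adjusted p of the change = 0.00183), Ddit4 from 1.50 to 0.35 (0.00162) and Pdk4 from 2.54 to 1.23 (9.86e-04). Pik3r1 went from 0.70 to −0.49 (0.00293). For each of these 4 the difference at 24 h was the greater, which the choice of genes by their 24 h change favours. Fkbp5 was at 2.79 and 2.39 (0.316), Fabp4 at 4.74 and 4.78 (0.978) and Trim63 at 0.67 and 0.63 (0.894), none of which passed for a change. Igf1 went further down, from −1.61 to −3.58 (0.0196), while Grem1 went from −1.76 back to −0.31 (0.00924).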

How the data were processed

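Polyadenylated RNA of C2C12 cells was sequenced from stranded libraries, per the labels' protocols. The submitters' processing notes name build GRCm39 and, without saying what each did, kallisto 0.51.1, Salmon and DESeq. The authors deposited a table of log2 values, normalised by a method not given in the sources used here, and a table of TPM. The design had assumed normalised counts, but the deposited values are on a log2 scale and were used as they stand. Depth is unknown, and 12569 to 12947 genes per library reached 1 TPM. Symbols were matched by identifier (48291 of 48544 genes). Genes with 2 to the power of the value of at least 10 in at least 4 of the 24 libraries were tested with limma 3.58.1 (R 4.3.3, empirical Bayes with a trend), with 1 mean per group over all 24 libraries, no covariate and Benjamini-Hochberg adjustment. The script was tested on simulated data. Residuals of same-numbered libraries correlated in all 4 pairs (0.36, 0.20, 0.39 and 0.24), so the replicate number was used as a block in an alternative fit. The labels give no source for this pairing. Other alternatives were TPM scales with 3 pseudocounts, filters, quantile normalization, the 8 libraries alone and leaving out single libraries. Length centring and leaving out vehicle replicates 1 and 3 were added after seeing the data. Transcript lengths are medians of protein-coding transcripts of an older annotation. Members and 52 gene lists were chosen with earlier results of these data known. Named genes are the 15 largest rises and falls whose groups do not overlap and whose higher mean is at least 5 TPM, switched genes, and list members. A few list members are not reported here by name.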

Additional observations from a re-analysis of the deposited data

Results flagged for a closer look

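Single libraries stood apart from the other 3 of their group for 7 of the groups given by library. Chance alone marks about 1 in 20 groups, and many groups are given by library, so these 7 may be no more than chance. With dexamethasone these were the highest libraries of Dusp1 (87.7 TPM), Heyl (5.97 TPM), Igf1 (24.2 TPM) and Pdp1 (128 TPM). With vehicle they were the highest libraries of Serpina3m (0.012 TPM) and Gm28439 (0.487 TPM), with the others of both at 0, and the lowest of Timp3 (90.6 TPM). Of these genes, Gm28439 alone had groups that overlapped.

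For 31 genes given by library the dexamethasone difference changed from 24 h to 72 h by the test of the change itself. Over all genes tested 11.3% passed for such a change. Genes given by library were mostly those with the largest changes at 24 h. That 24 h value enters the test, so the choice favours a smaller difference at 72 h. Among secreted proteins, Lbp went from a log2 difference of 4.95 at 24 h to 1.48 at 72 h (adjusted p of the change = 0.0117), Orm1 from 4.73 to 2.25 (0.0165), Gas6 from 1.93 to −0.56 (0.00114), Vegfd from 2.16 to 0.55 (0.000547), Edn1 from 1.93 to −0.33 (0.00109) and Gpx3 from 2.42 to 0.53 (0.000446). Adamts1 went from 1.74 to 0.35 (0.000271), Fst from 0.61 to −0.70 (0.00168) and Serpina3m from 7.43 to 4.42 (0.046). Serpina3n (0.0715) and Hp (0.184) did not pass for a change.

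Receptor targets and metabolic genes that passed for a change include Klf15 (0.00183), Ddit4 (0.00162), Pdk4 (0.000986) and Pik3r1 (0.00293), whose differences are given with the 72 h comparison above. Glul went from 1.90 to 1.02 (0.00331), Sgk1 from 1.83 to 0.96 (0.00453), Klf9 from 1.03 to 0.32 (0.0247), Pdp1 from 1.29 to 0.33 (6.2e-05), Cebpa from 1.68 to 0.64 (0.00469), Fbxo32 from 1.46 to 0.73 (0.0225), Slc10a6 from 4.70 to 3.15 (0.0266), Rgs2 from 3.96 to 1.74 (0.0293), Tgfbr3 from 1.46 to 0.03 (0.00221) and Id3 from 1.31 to −0.28 (0.00393).

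Among genes lower at 24 h, Timp1 went from −1.54 to −0.10 (9.71e-06), Dynap from −3.06 to −1.46 (0.0158), Gm10297 from −2.98 to 0.85 (0.0244), Cxcl12 from −0.85 to −1.88 (0.0244), and Igf1 (0.0196) and Grem1 (0.00924) as given above. Nr3c1, which did not pass at 24 h, went from −0.01 to −0.44 (0.0243), and Angptl4 from −0.49 to 0.91 (0.0468).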

How the results depend on the processing

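Of 179 named genes tested, 142 kept their direction and their side of the threshold under every alternative run. Leaving out 1 library at a time gave 2706 to 4358 genes called, 1480 to 2241 higher and 1217 to 2117 lower, and 234 to 288 higher and 149 to 285 lower among distinct members of all lists, against 4134, 2143, 1991, 291 and 248. On log2(TPM + 0.01), log2(TPM + 0.1) and log2(TPM + 1), 1145, 1160 and 1156 genes were lower, and 159, 158 and 157 list members. Without vehicle replicates 1 and 3, 1799 genes were called, 940 higher and 859 lower, with 178 and 138 list members, in a fit that assumes the 2 vehicle libraries left vary like the other groups, and 27 named genes lost their call. Other fits stayed within 1.5 times of these counts, except that the 8 libraries alone with a replicate block gave 392 list members lower. With all 24 libraries, the replicate block called 4621 genes, 2359 higher and 2262 lower, and changed the call of 1 named gene, Csf1r. Genes that did not pass changed sign. Nr3c1 was at 0.093, 0.093 and 0.088 on the 3 TPM scales, 0.018 in both length-centred fits and −0.089 to 0.050 with 1 library left out. Myog was at 0.071 on each TPM scale, 0.033 in both length-centred fits, 0.0025 after quantile normalization and −0.070 to 0.035 with 1 library left out. Foxo1 was at −0.13 in both length-centred fits and −0.071 without vehicle replicates 1 and 3. Acta1 was at −0.024 there and −0.031 to 0.107 with 1 library left out, and Angptl4 at −0.75 to 0.038 with 1 left out. The causes were not tested beyond the construction of each fit. Switched genes numbered 11 and, by the other cut-offs, 12, and genes whose response changed by 72 h 1842, 2466 without both 72 h replicate 1 libraries and 2233 with the block. Depth is unknown, so levels below about 0.1 TPM give no firm order.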

Other observations

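Ion transport genes had 6 higher and 4 lower of 30, or 2 lower without dexamethasone replicate 4, without vehicle replicate 2 or on log2(TPM + 0.1). Fxyd5, a regulator of the sodium pump, fell 4.28-fold, from 25.1 ± 2.7 to 5.88 ± 1.34 TPM (adjusted p = 2.62e-06), and Piezo2, a mechanosensitive channel, fell 2.63-fold (adjusted p = 6.74e-04). Atp1b1, a subunit of the sodium pump, rose 1.84-fold (adjusted p = 8.78e-04). Slc12a2, a chloride cotransporter, rose 2.09-fold (adjusted p = 5.53e-05).

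A few predicted genes, chosen here after their values were seen, were listed at 0 in some libraries of a group and high in others. Gm28439 was at 0, 0, 255 and 283 TPM with dexamethasone and 0, 0.487, 0 and 0 TPM with vehicle (adjusted p = 0.235). Gm7329 was at 0, 21.00, 0 and 16.1 TPM with vehicle and at 0 in all 4 dexamethasone libraries (adjusted p = 0.13). No group of 4 was uniform in these 2 genes on the side where they were seen.

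In 18 genes the vehicle median was below 0.25 TPM and the dexamethasone mean at least 5 TPM. Their vehicle level was a median of 0.403% to 0.95% of that in the same-numbered dexamethasone library. The genes were picked by these levels, so a low share was set in advance and shows nothing further.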
